A study of Mus musculus with 6 samples.

Results

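The 10 keratin genes described here are Krt25, Krt26, Krt27, Krt28, Krt71, Krt72, Krt73 and Krt74, the keratins of the inner root sheath of the hair follicle, together with Krt75 and Krt79. They were taken by gene symbol from a table of 23951 genes, and all 10 were found. Krt75 is known as the keratin of the companion layer. Krt79 is best known from the upper canal of the follicle and the sebaceous duct, so it is described apart from the other 9.

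The inner root sheath is the rigid tube that surrounds and moulds a growing hair, and the companion layer is the single sheet of flat cells between this tube and the outer root sheath. Keratin filaments are built from pairs of 1 acidic, type I keratin and 1 basic, type II keratin. Krt25 to Krt28 encode the type I and Krt71 to Krt74 the type II keratins of the inner root sheath. These sheath cells are made by the hair matrix while a follicle grows and are lost when it rests, and dominant changes in Krt25, Krt27 or Krt71 give mice with wavy coats.

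Poly(A) RNA of whole skin was sequenced from 3 control mice, with the genotype JunB +/+, and 3 mice with the genotype JunB dep, called JunBΔep here, whose skin the study describes as lesional. In JunBΔep mice JunB is deleted in cells that express K5, the keratin of the basal epidermis and the outer root sheath, and the line was backcrossed for at least 7 generations. All 6 were C57Bl/6 mice aged 6 to 7 months, and 1 library stands for 1 mouse. The labels do not give the body site, the hair cycle stage, the sex of each mouse, or whether the controls carried any allele used for the deletion. Of the epidermal keratins, Krt5 was at 1588 to 3725 FPKM and Krt10 at 1968 to 3872 FPKM over the 6 libraries. In the library labelled JunBΔep replicate 0, however, Krt14 was listed at 0 (837 to 1304 FPKM elsewhere), Krt15 was at 80.7 FPKM (947 to 2388 elsewhere) and Krt77 at 1.79 FPKM (945 to 2159 elsewhere). The values are FPKM (fragments per kilobase of transcript, scaled to the mapped fragments of the library). FPKM divides by transcript length, so levels may be compared between genes. Where 3 values stand for a group they are those of replicates 0, 1 and 2, so the first JunBΔep value is always that of the library labelled JunBΔep replicate 0.

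The number of reads is unknown, and the FPKM values sum to 481078 to 630363 per library. Junb, the deleted gene, was at 59.3, 72.4 and 56.9 FPKM across controls, against 129.6, 42.8 and 28.0 FPKM across JunBΔep skin, so the library labelled JunBΔep replicate 0 lay above every control. Skin holds cells that do not express K5, so Junb checks the labels only in part. The library labelled JunBΔep replicate 0 also stood apart in 5 markers of mucosal epithelium, whose FPKM values summed to 3798 there and to at most 1.41 in any other library. In the other direction, 8 skeletal muscle markers summed to 14429 to 18580 FPKM in the controls and to 1380.0 to 3285 FPKM in the libraries labelled JunBΔep. The part of these differences in the results below was not tested. In bulk skin, fewer cells of a type and less RNA per cell cannot be told apart.

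The genes lie in the keratin clusters of the mouse genome. On the mm9 build (GENCODE vM1) Krt25 is on chromosome 11 from 99176830 to 99184265, followed by Krt26 (99189864 to 99199280), Krt27 (99206879 to 99212418) and Krt28 (99226186 to 99236217). Each has 8 exons and is on the minus strand. On chromosome 15, also on the minus strand and with 9 exons each, lie Krt75 (101393776 to 101404335), Krt71 (101564381 to 101573540), Krt74 (101584690 to 101593935), Krt72 (101606603 to 101616889), Krt73 (101623739 to 101632774) and Krt79 (101759763 to 101770755). Krt72 appears in that annotation under its synonym Krt72-ps. No annotated gene overlaps any of the 10. Keratins are paralogs with similar coding sequence, and the alignment allowed up to 20 hits per read, so reads could be shared between them.

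Since the inner root sheath keratins varied together (below), promoters of the most abundant type I and type II members are shown, with those of Krt27 and Krt73 and, as a contrast, of Krt79. They are RefSeq sequences on the GRCm38.p6 build, all on the minus strand, from 250 bases before to 50 bases after the gene start. The positions are chr11:99322902-99323201 for Krt25, chr11:99351069-99351368 for Krt27, chr15:101743048-101743347 for Krt71, chr15:101802311-101802610 for Krt73 and chr15:101940275-101940574 for Krt79. Capitals mark matches on either strand to any of the following motifs, which can overlap. The TATA box was searched as TATAAA. A core of the sites of homeodomain factors was searched as AATTA. For GATA factor sites, AGATAA was searched, with TGATAA as the other form. For AP-1, the kind of site that JunB binds, TGANTCA was searched, where N is any base.
Krt25: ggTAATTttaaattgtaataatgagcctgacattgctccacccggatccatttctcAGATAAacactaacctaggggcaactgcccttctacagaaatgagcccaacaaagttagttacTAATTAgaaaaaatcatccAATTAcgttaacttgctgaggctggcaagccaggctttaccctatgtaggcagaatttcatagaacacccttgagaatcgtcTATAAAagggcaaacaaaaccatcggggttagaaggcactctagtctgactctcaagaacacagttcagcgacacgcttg
Krt27: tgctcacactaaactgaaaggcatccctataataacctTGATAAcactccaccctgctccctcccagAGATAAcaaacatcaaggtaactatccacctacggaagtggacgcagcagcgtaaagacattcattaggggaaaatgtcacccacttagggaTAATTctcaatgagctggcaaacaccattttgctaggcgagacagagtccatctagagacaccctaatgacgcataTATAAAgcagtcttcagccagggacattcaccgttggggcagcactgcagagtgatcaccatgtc
Krt71: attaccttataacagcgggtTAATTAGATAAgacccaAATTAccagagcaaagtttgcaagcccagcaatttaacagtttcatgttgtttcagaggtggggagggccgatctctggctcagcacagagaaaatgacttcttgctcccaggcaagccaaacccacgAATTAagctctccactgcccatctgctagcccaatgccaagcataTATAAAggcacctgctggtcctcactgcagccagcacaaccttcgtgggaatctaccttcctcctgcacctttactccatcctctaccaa
Krt73: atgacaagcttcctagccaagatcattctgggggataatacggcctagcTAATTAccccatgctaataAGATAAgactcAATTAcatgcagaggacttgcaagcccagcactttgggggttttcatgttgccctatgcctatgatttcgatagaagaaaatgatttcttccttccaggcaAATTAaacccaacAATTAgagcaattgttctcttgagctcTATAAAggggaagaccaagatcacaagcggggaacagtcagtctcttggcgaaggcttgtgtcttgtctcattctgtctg
Krt79: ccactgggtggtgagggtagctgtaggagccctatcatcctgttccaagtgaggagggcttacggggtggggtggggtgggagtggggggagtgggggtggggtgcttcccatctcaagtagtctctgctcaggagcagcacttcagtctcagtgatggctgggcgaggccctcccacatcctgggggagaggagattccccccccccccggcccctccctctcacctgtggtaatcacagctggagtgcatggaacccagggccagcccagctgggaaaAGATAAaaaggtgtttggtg

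A promoter was found for 9 of the 10 genes, 7 of them inner root sheath keratins. The TATA box letters and the homeodomain core were each present in 7 of these 7, and in 13.6% and 27.0% of all 32851 mouse promoters of the same length. Neither is in the Krt75 or Krt79 window. The only TATA match of Krt72 was TTTATA, on the other strand, starting 203 bases before the gene start. The other sheath promoters had TATAAA starting 15 to 40 bases before the gene start. A GATA motif was in 4 of the 7, those of Krt25, Krt27, Krt71 and Krt73, and also in that of Krt79, 30 bases after the gene start, which makes 5 of the 9, against 18.6% of all promoters. The 4 sheath promoters shown above are thus those with a GATA motif. Those of Krt26, Krt28 and Krt72, without one, are not shown. The AP-1 motif was in 0 of the 9 and in 7.81% of all promoters. The longest run shared by any 2 of the 9 windows was TTGCAAGCCCAGCA, of 14 bases, in Krt71 (starting 196 bases before the gene start) and Krt73 (154 bases before). These are matches of letters in 1 window, chosen with the sequences in view, and say nothing of binding.

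The type I keratins of the inner root sheath were close to absent in 2 controls, high in control replicate 2, and spread over a wide range in JunBΔep skin. Krt25, which is made in all layers of the sheath, was at 0.0976, 0.161 and 816 FPKM across the controls, against 91.4, 1756 and 30.4 FPKM across JunBΔep skin. Krt27, found in the same layers, was at 0.224, 0.360 and 767 FPKM across controls, against 49.9, 992 and 12.1 FPKM across JunBΔep skin. The highest value of both genes was thus in JunBΔep replicate 1, with control replicate 2 next and the other 2 controls lowest. Krt28, the remaining keratin of all layers, was at 0.974, 0.631 and 160.2 FPKM across controls, against 11.2, 389 and 8.02 FPKM across JunBΔep skin. Krt26, a keratin of the sheath cuticle, the layer that faces the hair, was lower, at 0.0266, 0.0649 and 63.4 FPKM across controls, against 2.24, 67.5 and 0.276 FPKM across JunBΔep skin. For each of these 4 genes the groups overlapped, since control replicate 2 lay above JunBΔep replicates 0 and 2.

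The type II partners had the same 4 libraries highest, in the same order. Krt71, the most abundant of the 10 genes in 2 libraries and the type II keratin of all sheath layers, was at 0.191, 0.344 and 1318 FPKM across the controls, against 120.1, 2159.8 and 32.9 FPKM across JunBΔep skin. Krt73, a cuticle keratin, was listed at 0 in control replicate 0 and was at 0.0224 and 171 FPKM in the other controls, with 18.0, 461 and 9.20 FPKM in JunBΔep skin. Krt72, also of the cuticle, was at 0.0147, 0.0154 and 122 FPKM across controls, against 5.58, 168 and 0.367 FPKM across JunBΔep skin. Even JunBΔep replicate 2, the lowest of its group, was above control replicates 0 and 1 in each of these genes. Krt74, the keratin of the middle, Huxley layer, was the least abundant in the 4 libraries with sheath signal, at 0.0435, 0.0455 and 5.84 FPKM across controls, against 0.577, 12.4 and 0.0751 FPKM across JunBΔep skin. Krt72 and Krt74 differed between control replicates 0 and 1 by the same ratio of 1.05. Levels this low may rest on very few reads, and no detection limit is given because the depth is unknown.

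**Figure D1:**
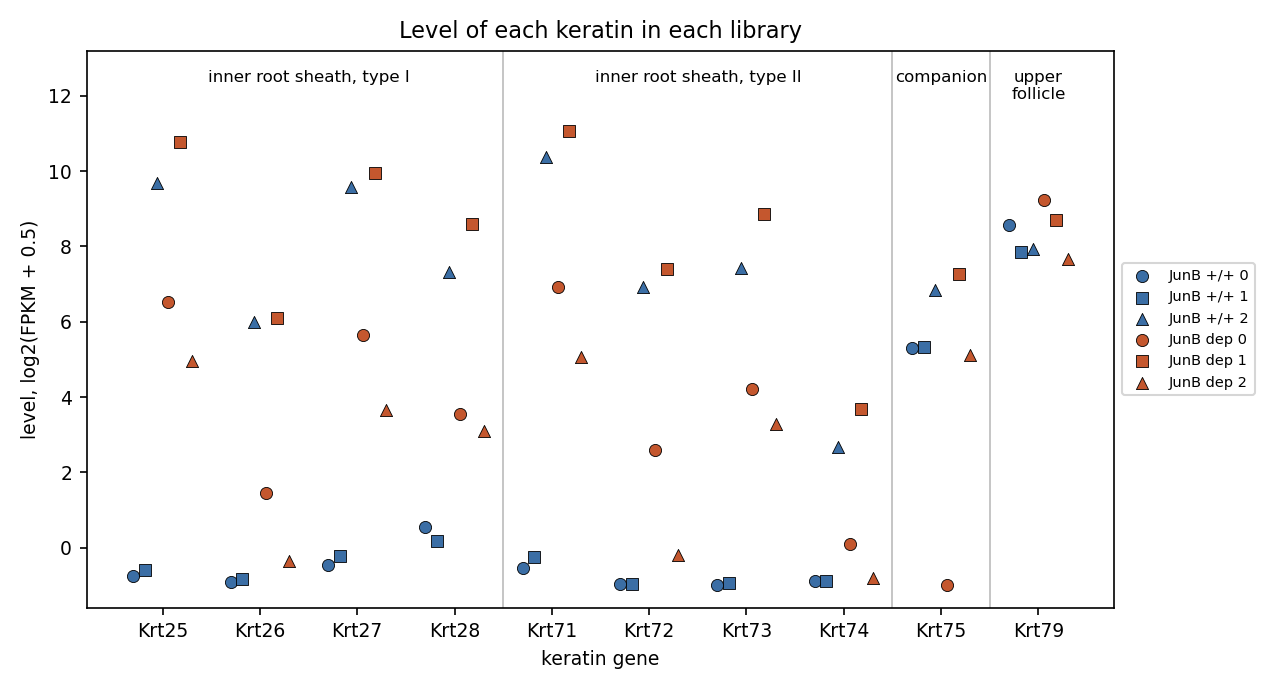
Level of each of the 10 keratins as log2(FPKM + 0.5) (vertical axis) in each of the 6 libraries, with controls (JunB +/+) in blue, JunBΔep (JunB dep) in orange and a marker shape for each replicate number. The 8 inner root sheath keratins share the order of the 4 highest libraries, with control replicates 0 and 1 below these, while Krt75 and Krt79 do not follow it.

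All 8 inner root sheath keratins ranked the 4 highest libraries the same way. JunBΔep replicate 1 was highest, followed by control replicate 2, the library labelled JunBΔep replicate 0 and JunBΔep replicate 2, with control replicates 0 and 1 below them in either order (8 of 8 genes). Summed over the 8 genes, the level was 1.57, 1.64 and 3424 FPKM across controls, against 299, 6007 and 93.4 FPKM across JunBΔep skin. Control replicate 2 was therefore 2083-fold above control replicate 1, and JunBΔep replicate 1 was 64.3-fold above JunBΔep replicate 2. Both spreads are within a genotype. In JunBΔep replicate 1 these 8 genes took 1.25% of all FPKM, against 0.000314% in control replicate 0. Over the 28 pairs of genes and the 6 libraries, Pearson's r of log2(FPKM + 0.5) ranged from 0.87 (Krt25 with Krt74) to 0.999 (Krt25 with Krt71), given as a description of these libraries.

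The groups were compared with limma on log2(FPKM + 0.5) over 17021 genes, a scale that understates the change of low genes. Of all genes tested, 1.38% passed an adjusted p of 0.05, each of them lower in JunBΔep skin (10 were higher without the library labelled JunBΔep replicate 0), and in 14.8% the groups did not overlap (5.62% higher and 9.16% lower in JunBΔep skin). Of the 10 keratins, 0 had an adjusted p below 0.05 with limma, 0 had an unadjusted p below 0.05 (7.56% of all genes did), and 0 had groups that did not overlap. On this scale the mean was higher in JunBΔep skin for 9 of the 10, against 53.4% of all genes tested, and the median difference over the 10 was 1.99, against 0.03 over all genes. A difference of at least 2 towards JunBΔep was found for Krt25, Krt27, Krt28, Krt71 and Krt73, and for 0.629% of all genes. The members were chosen with earlier results known, so no test over the list is given.

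The SD within the controls was larger than the difference for each of the 8 sheath keratins, and the SD within JunBΔep skin for 4 of them (Krt26, Krt28, Krt72 and Krt74). The log2 difference (JunBΔep minus control) was 4.64 for Krt25, with a standard error of 3.13, a 95% interval from -2.99 to 12.27 and an adjusted p of 0.722 from limma. Krt71 had a difference of 4.49 (standard error 3.24, 95% interval -3.42 to 12.39, adjusted p = 0.722 from limma). For the other 6 sheath keratins the difference ranged from 0.70 (Krt74) to 3.62 (Krt73), with adjusted p-values from 0.722 to 0.896. Within the controls the SD of the 8 genes was 2.04 to 6.21 on the log2 scale (n = 3), and within JunBΔep skin 2.38 to 3.85 (n = 3). The range over all 6 libraries was so wide that only 0.0588% (Krt71) to 2.93% (Krt74) of all genes tested had a range at least as wide. An exact permutation of 3 mice against 3 has a smallest two-sided p of 0.1, so no such p is given.

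Single libraries set the size and, for some genes, the sign of the difference. Without control replicate 2 the median over the 10 genes was 4.47, and 5 of the 10 had an unadjusted p below 0.05 with limma, against 6.08% of all genes in that same fit. They were Krt25, Krt27, Krt28, Krt71 and Krt73, and none passed the adjusted threshold (Krt25 had the lowest limma adjusted p, 0.2503). Without JunBΔep replicate 1 the median was 0.49, and Krt26, Krt72 and Krt74 were lower in JunBΔep skin, at -0.87, -0.48 and -0.65. Leaving out control replicate 0 or control replicate 1 gave medians of 0.99 and 0.71 and turned Krt26 to -0.20 and -0.14. Without JunBΔep replicate 2 the median was 3.36. Without the library labelled JunBΔep replicate 0 it was 2.54.

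The difference also turned with the numbers in the sample titles, which fall into 2 runs whose meaning the labels do not give. The lower run holds control replicates 0 and 1 and the library labelled JunBΔep replicate 0, and the higher run holds control replicate 2 and JunBΔep replicates 1 and 2. Within the lower run all 8 sheath keratins were higher in JunBΔep skin, by 0.98 (Krt74) to 7.30 (Krt71) on the log2 scale. Within the higher run the JunBΔep mean of log2 values was below the control for all 8, with differences from -3.34 (Krt72) to -1.22 (Krt74). There, however, JunBΔep replicate 1 was above control replicate 2 for all 8, at 1.07-fold to 2.69-fold. JunBΔep replicate 2 was below control replicate 2 for all 8, so the sign of the mean rests on that library. Each run has 1 library in 1 of the genotypes, so these values have no test of their own. With the run as a term in the limma fit, the difference was 2.69 for Krt25 (adjusted p = 0.682) and 1.91 for Krt73 (adjusted p = 0.718), Krt26 and Krt74 were at -0.41 and -0.12, and 0 of the 10 keratins passed the adjusted threshold. Only Krt75, at -3.47 with its listed 0, had an unadjusted p below 0.05 in that fit, as did 8.95% of all genes. The higher of the 2 runs holds both libraries with the most sheath keratin, and the part of the run in that was not tested.

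**Figure D2:**
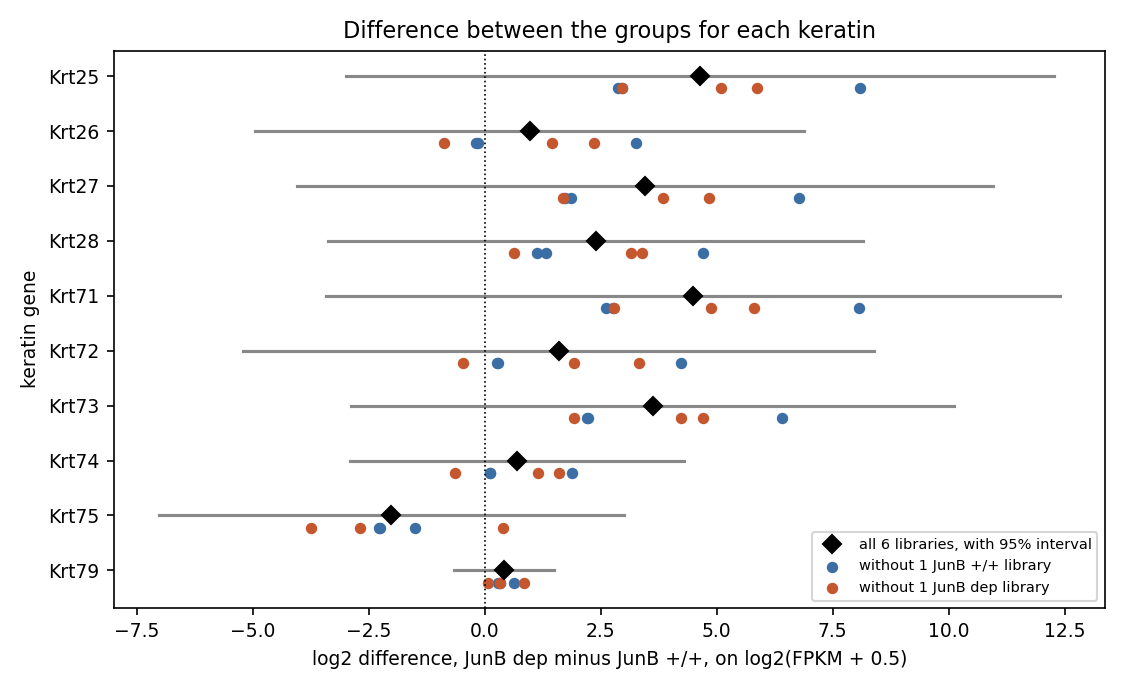
Log2 difference between JunBΔep and control skin for each keratin (black diamond, all 6 libraries) with its 95% interval from limma (grey bar) and the differences when 1 control (blue) or 1 JunBΔep library (orange) is left out. All 10 intervals include 0, and Krt26, Krt72, Krt74 and Krt75 change sign when some library is left out.

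Type I and type II sheath keratins kept a nearly equal balance across very different totals. The summed FPKM of Krt25 to Krt28 divided by that of Krt71 to Krt74 was 1.12 in control replicate 2, 1.07 in the library labelled JunBΔep replicate 0, 1.14 in JunBΔep replicate 1 and 1.19 in JunBΔep replicate 2. The totals of these 4 libraries differed by up to 64.3-fold. In control replicates 0 and 1 the ratio was 5.32 and 2.85. There the type II sum was 0.249 and 0.427 FPKM, and Krt28 was the most abundant of the 8 genes, while in the other 4 libraries the order was Krt71, Krt25, Krt27 and then Krt73.

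The make-up of the sheath keratins was less even for the minor members. Krt26 and Krt72 together made up 5.41% of the 8-gene sum in control replicate 2, 2.61% in the library labelled JunBΔep replicate 0, 3.93% in JunBΔep replicate 1 and 0.688% in JunBΔep replicate 2. Krt25 and Krt71 together made up 62.4%, 70.7%, 65.2% and 67.8% in the same libraries. From control replicate 2 to JunBΔep replicate 2, Krt72 was 332-fold and Krt26 229.9-fold lower, while Krt73 was 18.6-fold lower. From control replicate 2 to the library labelled JunBΔep replicate 0, the same genes were 21.8-fold, 28.3-fold and 9.49-fold lower. Only 1 control had sheath keratins well above 1 FPKM, so the make-up cannot be compared between genotypes.

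**Figure D3:**
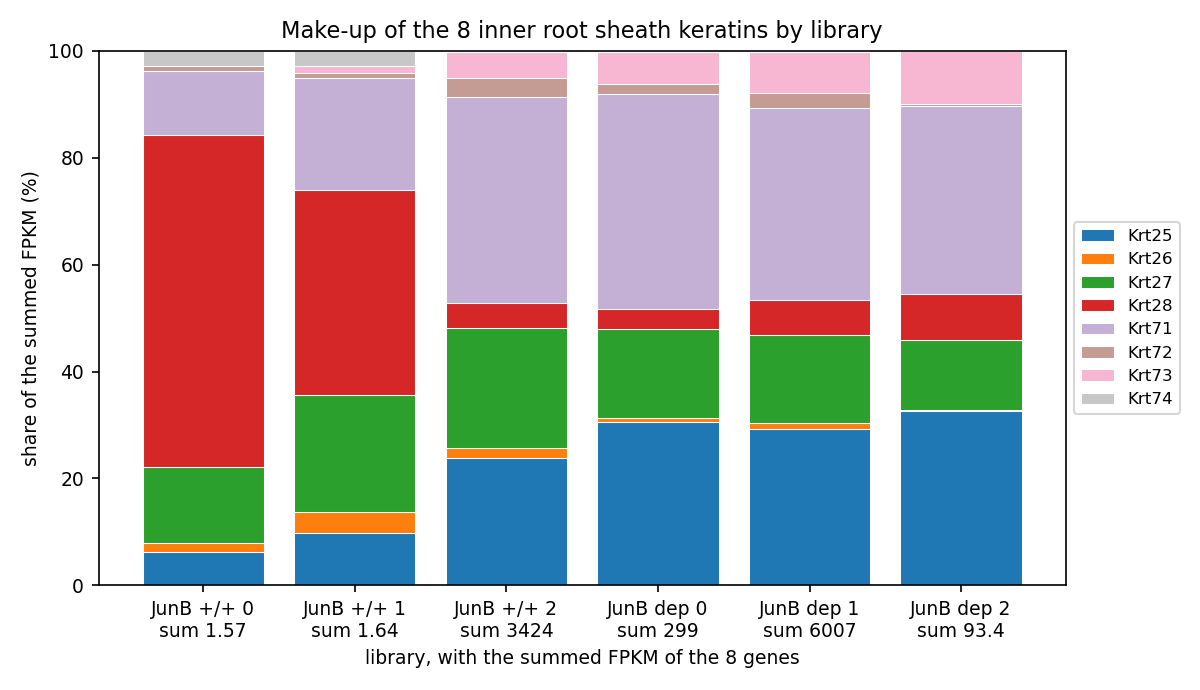
Share of each of the 8 inner root sheath keratins (percent of their summed FPKM, vertical axis) in each library, with the summed FPKM under each bar. In the 4 libraries with sums from 93.4 to 6007 FPKM, Krt71 and Krt25 are the main members and the shares of Krt26 and Krt72 vary, whereas control replicates 0 and 1, with sums of 1.57 and 1.64 FPKM, are led by Krt28.

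Krt75, the companion layer keratin, which is also made in the hair medulla, was expressed in every control. Its level was 38.7, 39.4 and 114 FPKM across controls, against 155 and 34.5 FPKM for JunBΔep replicates 1 and 2, while the library labelled JunBΔep replicate 0 listed it at 0. Control replicate 2 and JunBΔep replicate 1 were again the highest, but the 3 other libraries with a value stayed between 34.5 and 39.4 FPKM although the sheath keratins differed widely among them. Its log2 difference of -2.01 (standard error 2.05, limma adjusted p = 0.745) rests on the listed 0. With that value counted as missing, which leaves 2 JunBΔep libraries, the difference was 0.39 (adjusted p = 0.877 from limma). Over the 5 other libraries, r with the mean of the 8 sheath keratins was 0.93, as a description.

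The 0 of Krt75 stood beside 0 values of its neighbours. Of the 24 keratin genes of the table that the annotation places on chromosome 15, 5 were listed at 0 in the library labelled JunBΔep replicate 0, and they follow each other along the chromosome, from Krt84 and Krt82 over Krt75 to Krt6b and Krt6a. The hair shaft keratin Krt85, for which the annotation gave no position, was listed at 0 there as well. Krt82 was also listed at 0 in control replicate 0. Krt84 and Krt6b were as low as 0.143 and 0.274 FPKM in other libraries, so their 0 values stand out less. Krt6a, an inducible keratin that the companion layer also makes, was at 33.0 to 112 FPKM in the other 5 libraries. The next gene, Krt5 of the basal layer, was at 3725 FPKM in that library, and Krt71 behind it at 120.1 FPKM. On chromosome 11, Krt14 and Krt16 were also listed at 0 there, against 837 to 1304 FPKM and 9.29 to 13.5 FPKM in the other libraries. An exact 0 may stand for an estimate that failed, so Krt75 is said only to be listed at 0.

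**Figure D4:**
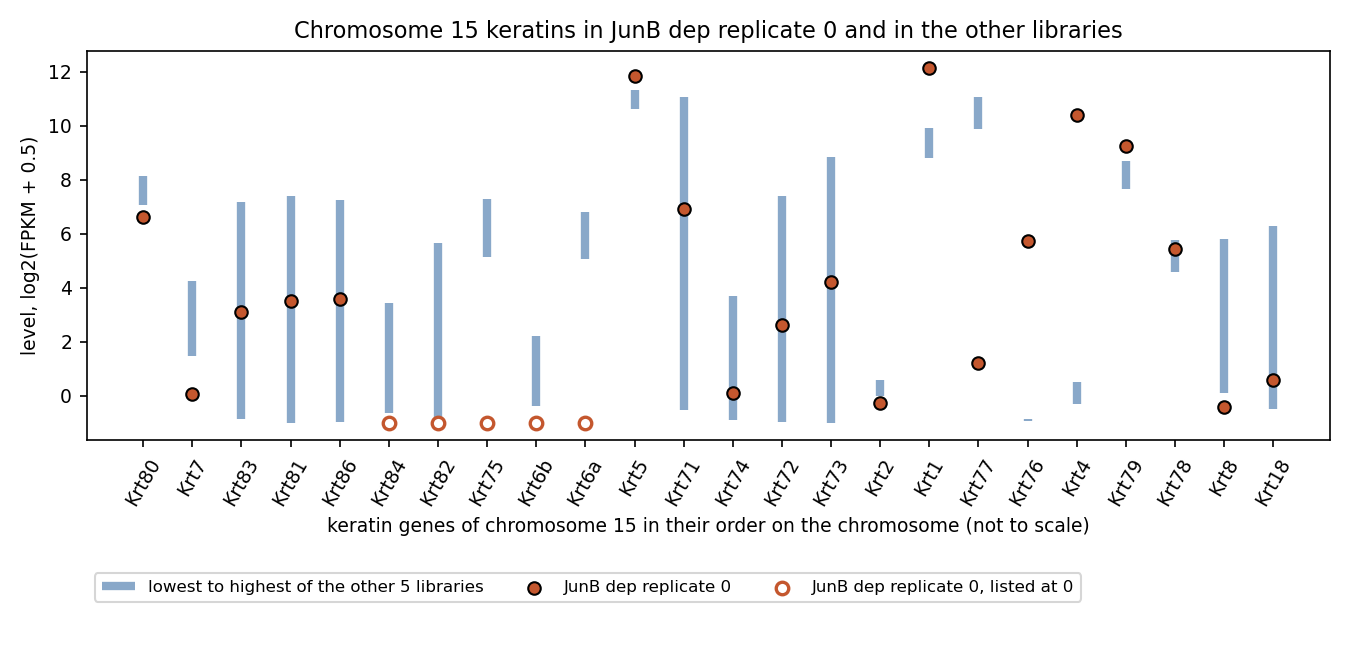
Level as log2(FPKM + 0.5) of the 24 keratins of chromosome 15, in their order on the chromosome, in the library labelled JunBΔep replicate 0 (points, open where listed at 0) and in the other 5 libraries (bars from lowest to highest). The 5 open points from Krt84 to Krt6a lie side by side and include Krt75, while Krt71 to Krt73 lie within the bars of the other libraries.

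Krt79 did not follow the sheath keratins. It was at 378, 230.3 and 246 FPKM across the controls, against 607, 415 and 203 FPKM across JunBΔep skin. The highest value was 2.99-fold the lowest, and 26.4% of all genes tested had a range at least as wide on the log2 scale. The groups overlapped, with 2 JunBΔep libraries above all controls and 1 below them. The control mean was 285 ± 81.4 FPKM (SD, n = 3), against a JunBΔep mean of 409 ± 202 FPKM (SD, n = 3). Its log2 difference of 0.42 had a standard error of 0.44 and a 95% interval from -0.66 to 1.5 (limma, adjusted p = 0.754), falling to 0.07 without the library labelled JunBΔep replicate 0. Without JunBΔep replicate 2 the log2 difference of Krt79 was 0.85, with an adjusted p of 0.269 from limma, and Krt79 was then the 1 keratin with an unadjusted p below 0.05, as were 18.4% of all genes in that fit. Over the 6 libraries, the r of Krt79 with the mean of the 8 sheath keratins was 0.20. The 4 upper follicle markers did not move together in the library labelled JunBΔep replicate 0. Defb6 (753 FPKM, 195 to 377 elsewhere) and Plet1 (164 FPKM, 17.7 to 69.4 elsewhere) were highest there, while Lrig1 (15.2 FPKM, 17.9 to 21.9 elsewhere) and Gata6 (0.966 FPKM, 1.43 to 3.39 elsewhere) were lowest.

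Other genes of the inner root sheath were compared in the same fit. None of the 7 listed genes passed an adjusted p of 0.05 in either direction with limma, and 0 had an unadjusted p below 0.05. Tchh, which encodes trichohyalin, the protein that hardens the sheath, was at 1.00, 0.807 and 376 FPKM across controls, against 30.2, 351 and 4.36 FPKM across JunBΔep skin, the order of the sheath keratins except that control replicate 2 was highest. Trichohyalin FPKM amounted to 11.0% of the 8-keratin sum in control replicate 2, to 10.1% in the library labelled JunBΔep replicate 0, and to 5.85% and 4.67% in JunBΔep replicates 1 and 2. In control replicates 0 and 1, where both were low, it amounted to 63.7% and 49.1%. Gata3, a transcription factor of the sheath that other skin cells also express, ranged from 62.0 to 92.5 FPKM in controls and was at 12.8, 95.1 and 64.5 FPKM in JunBΔep skin. Cux1, a further transcription factor made in the sheath, was at 18.5 to 43.5 FPKM across controls, against 19.7 to 75.2 FPKM across JunBΔep skin.

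The keratins of the hair shaft, which the sheath encloses, were also higher in control replicate 2 and JunBΔep replicate 1 than in the other 4 libraries, in 13 of 13 genes, but without 1 shared order, since JunBΔep replicate 1 was above control replicate 2 in 8 of the 13. Of the 13, 0 passed an adjusted p of 0.05 and 0 an unadjusted p of 0.05 with limma, and their median log2 difference was 1.82. Summed, they were at 8.66, 10.1 and 1732 FPKM across controls, against 106, 2165 and 28.0 FPKM across JunBΔep skin, where 3 of the 13 were listed at 0 in the library labelled JunBΔep replicate 0. Krt35, of the early shaft cortex, had the highest mean over the 6 libraries, though not the highest level in each, at 0.281, 0.504 and 175 FPKM across controls, against 15.6, 446 and 8.10 FPKM across JunBΔep skin. The sum of the sheath keratins was 1.98-fold that of the shaft keratins in control replicate 2 and 2.83-fold, 2.77-fold and 3.34-fold in JunBΔep replicates 0, 1 and 2. In control replicates 0 and 1 it was 0.181-fold and 0.162-fold. There Krt32 alone was at 7.24 and 7.96 FPKM of the shaft sums of 8.66 and 10.1 FPKM, so these ratios rest mostly on 1 gene.

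The 9 regulators of the hair matrix, the dividing cells that give rise to both sheath and shaft, included 0 genes past an adjusted or an unadjusted p of 0.05 with limma, and their median log2 difference was 0.80. Dlx3, a homeodomain factor of the matrix, was at 12.9, 10.4 and 71.5 FPKM across controls, against 15, 217 and 17.7 FPKM across JunBΔep skin. Wnt10a, a Wnt ligand of the matrix, went otherwise, at 20.5, 21.2 and 15.8 FPKM across controls, against 30.4, 26.2 and 19.3 FPKM across JunBΔep skin, so that control replicate 2 was lowest. Msx2, another homeodomain factor, was at 2.18, 2.55 and 29.3 FPKM across controls, against 2.62, 89.5 and 5.13 FPKM across JunBΔep skin. Dlx3 and Msx2, unlike Wnt10a, were thus highest in the same 2 libraries as the sheath keratins, while the library labelled JunBΔep replicate 0, next in sheath keratins, was at about the level of control replicates 0 and 1 in both. From control replicate 2 to JunBΔep replicate 1, the ratio was 1.46 to 5.10 for the 9 matrix regulators (median 3.05), 1.07 to 2.69 for the 8 sheath keratins (median 1.88) and 0.0917 to 2.54 for the 13 shaft keratins (median 1.11). These are ratios of 2 libraries with no replicate check.

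Markers of the other compartments moved with the sheath keratins in part. The 5 melanocyte markers, which in follicles mark the pigment cells of the growing hair bulb, summed to 6.88, 12.8 and 77.9 FPKM across controls, against 8.77, 114 and 9.29 FPKM across JunBΔep skin. The 5 dermal papilla markers, of the dermal cells at the base of the follicle, summed to 35.1, 33.8 and 48.7 FPKM across controls, against 31.1, 89.2 and 31.0 FPKM across JunBΔep skin. Both lists were thus highest in control replicate 2 and JunBΔep replicate 1. The 6 bulge stem cell markers summed to 166 to 221 FPKM across controls, against 81.4 to 192 FPKM across JunBΔep skin. Cd34 had the highest mean among them. Lgr5, Lhx2 and Tbx1 were higher in control replicate 2 and JunBΔep replicate 1 than in the other 4 libraries. Cd34, Nfatc1 and Fgf18 were not. For Lhx2 and Tbx1, control replicate 2 (22.8 and 30.3 FPKM) was barely above control replicate 1 (22.2 and 30.0 FPKM). The 7 sebaceous gland markers summed to 358 to 690.3 FPKM across controls, against 123 to 852 FPKM across JunBΔep skin, with Scd1 listed at 0 in JunBΔep replicate 2. Control replicate 2 and JunBΔep replicate 1 were above the other 4 libraries in 13 of 13 shaft keratins, 8 of 9 matrix regulators, 5 of 5 melanocyte markers and 5 of 7 other sheath genes, as in 7.83% of all genes tested. Among the dermal papilla markers, Corin, Alx4, Wif1 and Sostdc1 had this order as well, and Rspo3 did not. This order was noticed in the values, and the part of any compartment in the sheath keratins was not tested.

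**Figure D5:**
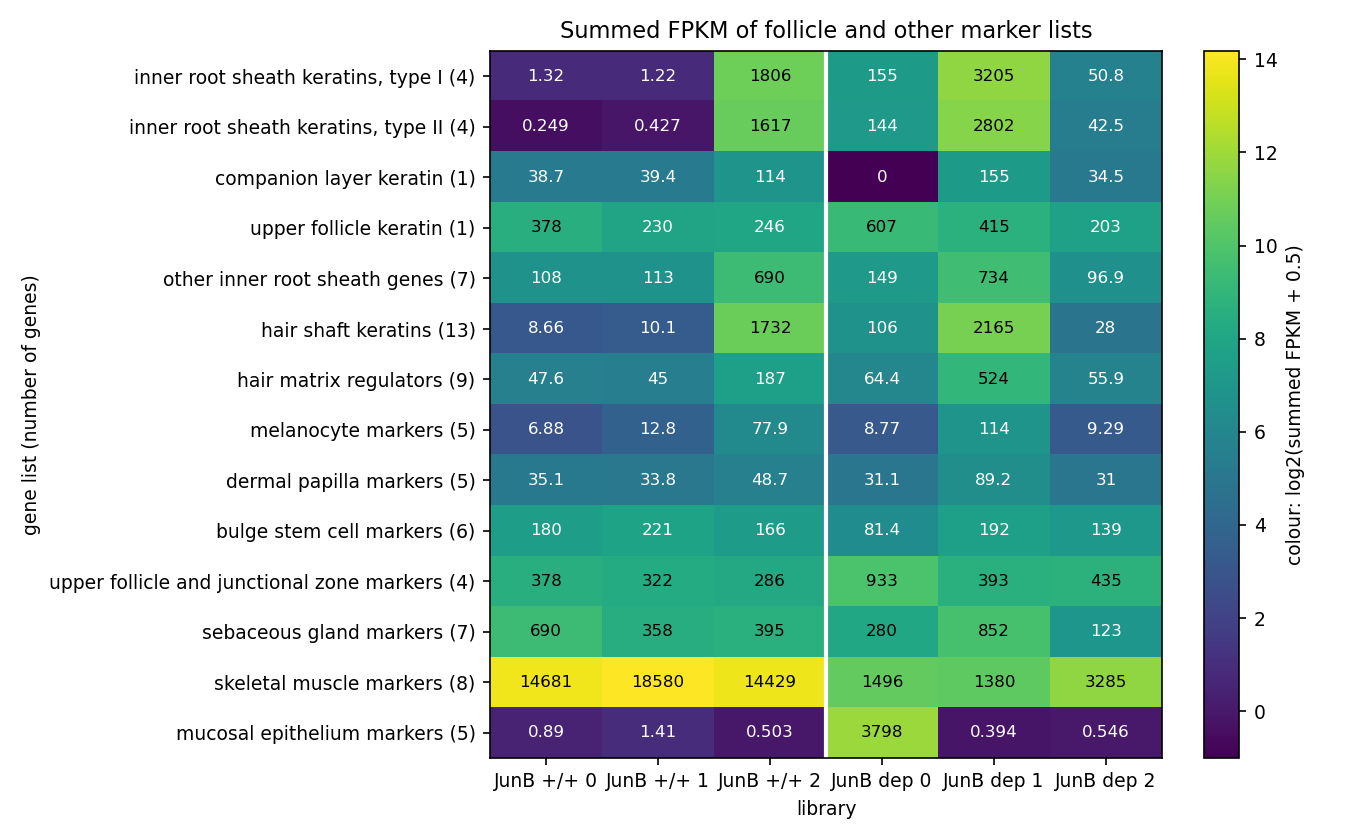
Summed FPKM (printed in each cell, colour on the log2(FPKM + 0.5) scale) of each gene list (rows, number of genes in brackets) in each library (columns, controls left of the white line). The sheath, shaft, matrix, melanocyte and dermal papilla rows are highest in control replicate 2 and JunBΔep replicate 1, unlike the muscle and mucosal rows.

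Outside the keratin families, 13641 genes with means from 1 FPKM upwards were ranked by their Pearson correlation with the mean of the 8 sheath keratins over the 6 libraries, and 75 had an r of at least 0.95. The 10 most alike were St7l, Padi3, Tchh, Ggt1, Magi3, Crnn, Gpbp1, Gm11570, Prr9 and Capn12 (r from 0.984 to 0.995). Padi3, an enzyme that converts arginine to citrulline in trichohyalin, was at 0.0675, 0.0707 and 58.5 FPKM across controls, against 4.87, 109.9 and 1.28 FPKM across JunBΔep skin. Crnn, the epidermal protein cornulin, was at 0.0848, 0.118 and 73.9 FPKM across controls, against 11.0, 80.4 and 1.14 FPKM across JunBΔep skin. St7l had the highest r but hardly varied, from 2.80 to 3.38 FPKM, and Gpbp1 stayed between 19.6 and 22.9 FPKM, since the measure takes no account of the size of the change.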

How the data were processed

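Poly(A) RNA of whole skin was sequenced from 6 mice with strand-specific libraries, 3 per genotype. The authors checked the reads with FastQC and aligned them to mm9 with TopHat2 2.0.10, Bowtie 1.0.0 and SAMtools 0.1.19, allowing 2 mismatches and 20 hits. The authors deposited 1 FPKM value for each gene in each mouse. Cufflinks is listed in the submitters' processing notes without a role, and no source used here states a scaling between libraries. The authors tested counts with DESeq2, and such counts were not used here. The number of reads is unknown. The most shared ratio between libraries among genes below 0.15 FPKM puts the scaling totals at 0.955 to 1.14 times that of control replicate 0.

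The FPKM values were used as deposited. Values were transformed to log2(FPKM + 0.5) and fitted with limma 3.58.1 (R 4.3.3) with a mean-variance trend, without a replicate block, over the 17021 genes whose mean was 0.1 FPKM or higher. The two-sided p-values were adjusted by Benjamini-Hochberg over all of these genes, with 0.05 as threshold. All 10 keratins passed the filter. The study gives 3 mice per genotype, so the p-values measure the spread between these animals. The members and lists were chosen with earlier results of these data known. All 10 members, Junb, the most abundant genes of a list (up to 3 here) and the 10 genes most like the sheath keratins were to be named. Padi3 and Tchh met this rule, and Defb6 is the most abundant gene of its list. Krt5, Krt14, Krt16, Krt6a, Krt6b, Krt82, Krt84, Krt85, Krt10, Krt15, Krt77, Krt24, Krt2, Gata6 and Scd1 were named after their values were seen. The procedure was tested on simulated data. Figures were made with Python 3.11.15 and matplotlib 3.10.9.

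As alternatives the pseudocount was set to 0.1 or 1, the filter was dropped or raised to 1 FPKM, and the fit was run with median-ratio and quantile scaling, limma without the trend or robust, a replicate block, and each library left out. Counting a 0 as missing where the other 5 libraries are at 3 FPKM or more and fitting the run of title numbers as a term were alternatives chosen with the data in view. Lists of fibroblast, adipocyte, immune, endothelial, dermal papilla, outer root sheath, suprabasal and stress keratin genes were measured as well. With limma, 0 of their genes had an adjusted p below 0.05, and 7 of the 8 muscle markers did, all lower.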

Additional observations from a re-analysis of the deposited data

How the results depend on the processing

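In 17 alternatives, 0 of the 10 keratins passed an adjusted p of 0.05 with limma, and the lowest adjusted p was 0.2503. Of 170 values, 161 kept their direction and 9 had the opposite one. The opposite ones were Krt26 (-0.41) and Krt74 (-0.12) with the run of title numbers as a term, Krt75 with the isolated 0 counted as missing (0.39) and some fits without 1 library, in which the difference ranged from -0.87 to 3.27 for Krt26, -0.48 to 4.22 for Krt72, -0.65 to 1.88 for Krt74 and -3.75 to 0.39 for Krt75. The median over the 10 keratins ranged from 0.49 to 4.47 when 1 library was left out. It was 2.71 with a pseudocount of 0.1 and 1.66 with a pseudocount of 1. The count of all genes past the threshold, 235, ranged from 0 to 254 when 1 library was left out: it was 0 without any 1 of the 3 controls or without JunBΔep replicate 1, 135 without the library labelled JunBΔep replicate 0 (125 lower and 10 higher in JunBΔep skin) and 254 without JunBΔep replicate 2. With the run of title numbers as a term it was 0, with 1523 genes at an unadjusted limma p below 0.05. With the replicate block it was 0, with 972 such genes, and the calls of the 10 keratins did not change. Same-numbered libraries did not deviate together (r of 0.12, -0.23 and -0.43 for replicates 0, 1 and 2 over 17021 genes), and none of the controls correlated best with its own number, so the numbers were not taken as pairs.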

Other observations

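Genes that border the sheath keratins on their chromosomes did not share their range. Krt24, next to Krt25 on chromosome 11, was at 8.15, 30.3 and 10.3 FPKM across the controls, against 29.8, 6.24 and 5.77 FPKM across JunBΔep skin. Krt10 of the suprabasal epidermis, on the other side of Krt28, differed by at most 1.97-fold between libraries (1968 to 3872 FPKM). On chromosome 15, Krt5 and Krt2 lie on either side of the stretch from Krt71 to Krt73. They differed between libraries by at most 2.35-fold and 3.01-fold, with Krt2 at 0.334 to 1.00 FPKM. These neighbours were chosen after the values were seen, and nothing was tested.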
